A study of Danio rerio with 12 samples.

Results

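Protocadherins are adhesion proteins of the cadherin superfamily that are expressed mainly in the nervous system. Here they were taken as every gene ID whose symbol starts with pcdh, whatever the case, which gave 58 of the 32520 IDs in each table. Of these, 36 carried symbols of the clustered genes (21 *pcdh1* genes, 14 *pcdh2* genes and *pcdha8l*), 21 were genes outside these clusters (non-clustered), and *pcdhb*, a beta-type symbol with no number, was kept apart. RNA was sequenced from whole brains of 12 male zebrafish aged 22 months, with the olfactory bulbs and pituitary attached and 1 poly(A)-selected library per brain. 6 fish were wild-type (gr +/+) and 6 were siblings homozygous for the s357 allele of the glucocorticoid receptor gene *nr3c1* (gr s357/s357), referred to as GR-mutant. The fish came from in-crossed heterozygotes and the genotypes were housed in separate tanks, so genotype and tank cannot be told apart.

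In a vertebrate protocadherin cluster, many variable exons stand in tandem, each with its own promoter, and are spliced to a set of shared constant exons. Each variable exon encodes the extracellular cadherin repeats, the membrane span and part of the cytoplasmic tail. In mammals, single neurons choose a few alpha, beta and gamma isoforms by promoter choice with the help of CTCF and cohesin, and matching isoforms on sister branches of a neuron mediate self-recognition. Zebrafish carry a duplicated pair of such clusters, *pcdh1* and *pcdh2*, each with alpha-type and gamma-type genes. The non-clustered delta protocadherins, such as Pcdh10, Pcdh17 and Pcdh19, are known for axon growth and sorting and for regional expression in the brain.

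The values are normalised counts, that is reads per gene divided by a DESeq2 size factor. The 12 libraries held 24407683 to 37548901 reads assigned to genes. limma was run on log2(normalised count + 1) for the 20114 genes that reached 10 normalised counts in 6 or more libraries, with Benjamini-Hochberg adjustment over all of them. This scale understates the change of genes with low counts, and fold changes (or log2 differences) are GR-mutant minus wild-type, with their standard error (SE). Each library came from a separate fish, and p-values measure the spread between these fish. Where wild-type and GR-mutant means stand side by side, the wild-type mean comes first. The *nr3c1* transcript had 4107 to 4567 normalised counts in wild-type and 4669 to 4955 in GR-mutant libraries. The groups did not overlap, and *nr3c1* was called higher (log2 fold change 0.15, SE 0.04, limma adjusted p = 0.0160). The s357 allele alters the protein and leaves the gene in place, so this level does not check the labels. In bulk brain RNA, fewer cells of a type and less RNA per cell cannot be told apart.

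Of the 58 protocadherins, 52 passed the filter, and 11 of those differed between the genotypes at an adjusted p under 0.05. In GR-mutant brains 9 were higher and 2 lower, and 41 did not pass the test. Among the 9, *pcdh1g1* and *PCDH12* passed the filter only with the mutant libraries, in which they were high. Over all tested genes 17.5% were called, 7.59% higher and 9.92% lower. The 21.2% of protocadherins called in either direction lay near the background. Their calls were mostly higher, unlike those over all tested genes in this fit. With every library scaled to the same total, the calls over all genes split into 3020 higher and 1313 lower in place of 1527 and 1996. With upper-quartile scaling they split into 1794 and 1728. The protocadherin calls were 12 higher and 2 lower under the former and 9 and 2 under the latter. The 52 tested members had a median log2 fold change of 0.15, and all tested genes one of 0.01. In 7 of the 52, *pcdh1g1* and *PCDH12* among them, the libraries of the genotypes did not overlap, against 8.27% of all tested genes.

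The calls fell unevenly over the family. In the *pcdh1* cluster 7 of 21 tested genes were higher, 1 was lower and 13 did not pass. In the *pcdh2* cluster none of 9 tested genes was called by limma, edgeR or DESeq2. At an unadjusted p under 0.05, 2 of them were higher in limma, 2 in edgeR and 1 in DESeq2. The 2 in limma were *pcdh2ab12* and *pcdh2ab5*, the latter named after its values were seen. *pcdh2ab5* passed the filter only with its mutant libraries, which had 14.3 to 29.3 normalised counts. Its wild-type libraries 4 and 5 had 5.66 and 9.78. Of the 20 non-clustered genes tested, 2 were higher and 1 was lower. The share called was 38.1% in the *pcdh1* cluster and 15.0% among the non-clustered genes, beside 17.5% over all tested genes. The first share includes *pcdh1g1* and the second *PCDH12*, which passed the filter only with their mutant libraries. The median log2 fold change was 0.36 in the *pcdh1* cluster, 0.13 in the *pcdh2* cluster and 0.13 over the non-clustered genes, and the clusters were not tested against each other. Without GR-mutant library 5, the calls of the clustered genes fell from 8 to 5 (4 higher and 1 lower).

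**Figure D1:**
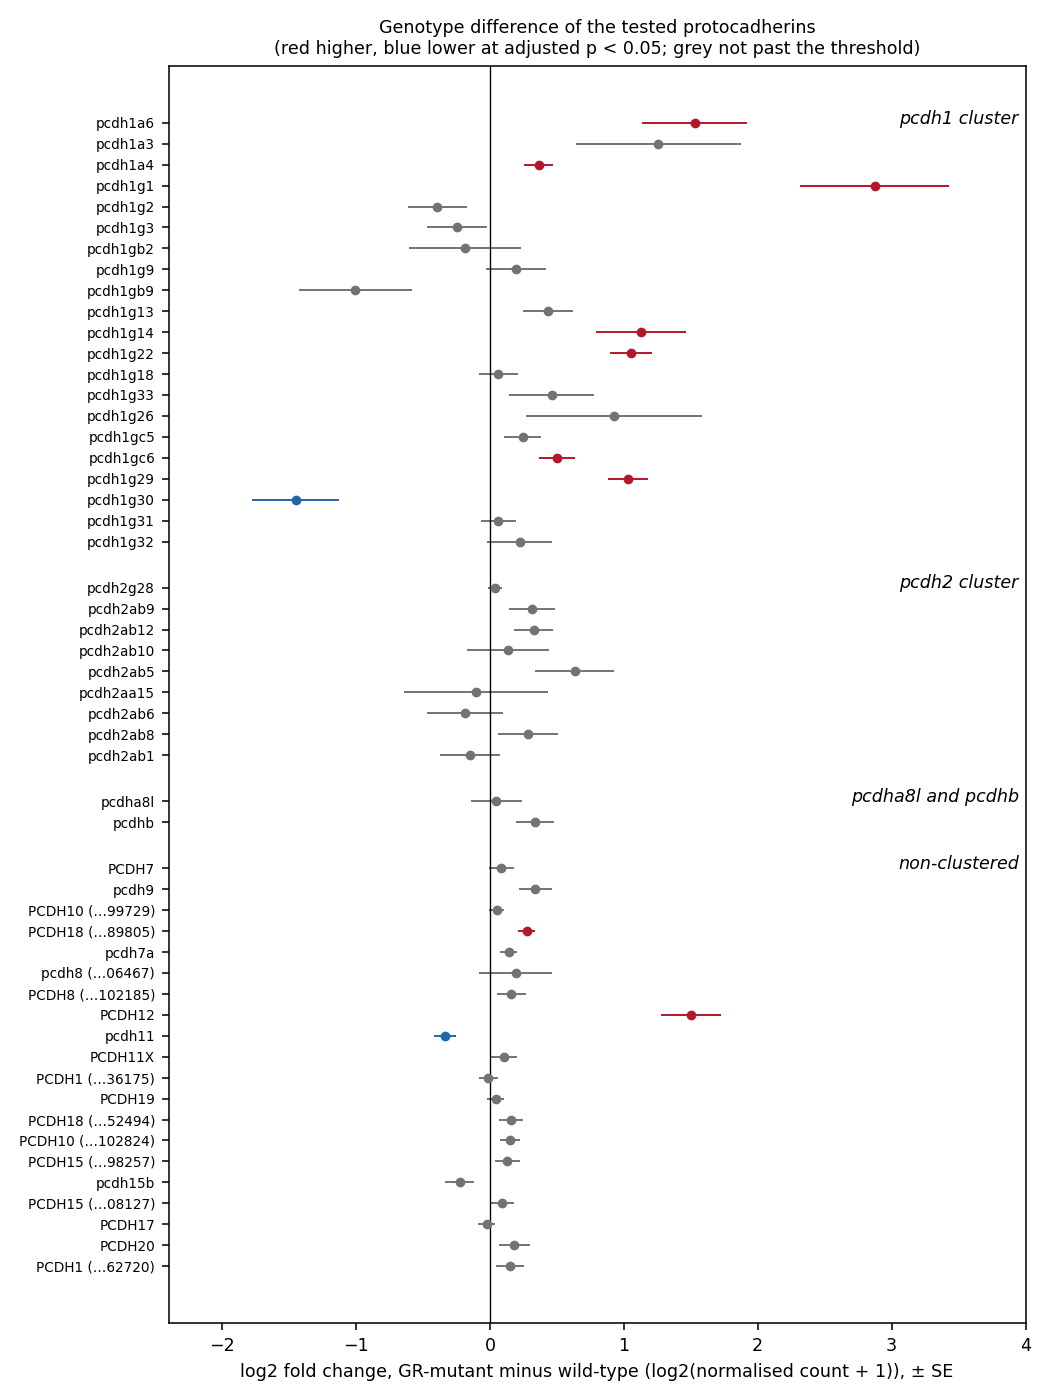
Log2 fold change (GR-mutant minus wild-type, on log2(normalised count + 1), with its standard error) of each of the 52 tested protocadherins, by class. The 8 called clustered genes all lie in the *pcdh1* cluster, where the values run from -1.45 to 2.87, while the *pcdh2* values run from -0.19 to 0.63 and none is called.

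The clusters differ in where they lie. By RefSeq symbols on the GRCz12tu assembly, all 10 matched *pcdh2* genes lie on the chromosome that carries *nr3c1*, and all 17 matched *pcdh1* genes on another chromosome. The files use GRCz11, so no position is given. The 21 *pcdh1* genes fill 21 of 25 consecutive rows of the tables, and 15 of 16 neighbouring matched pairs run in the same direction along RefSeq. The 14 *pcdh2* genes span 21 rows, and 6 of 9 such pairs run in the same direction. The commoner direction was counted in each cluster, so 6 of 9 does not show that the order is kept. In all, 24 protocadherins were placed on the chromosome of *nr3c1* by their neighbours in the tables. Of the 18 of these that were tested, *PCDH12* was higher and *pcdh11* lower, and their log2 fold changes, 1.5 and -0.33, were the highest and lowest of the 18. Of the 34 tested on other chromosomes, 8 were higher and 1 lower. Over all tested genes 23.9% were called on the chromosome of *nr3c1* and 17.3% on the others. Alleles linked to *nr3c1* move with the genotype by design, and on that chromosome linkage and genotype cannot be told apart.

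The shared exons bear on how these genes were counted. In RefSeq, 13 of 14 matched *pcdh1g* genes share the same end. Counted apart from these, 3 of 3 *pcdh1a* genes share an end with each other. Of 10 matched *pcdh2* genes, 9 share the same start. STAR counts a read for a gene only if it overlaps that gene alone and maps to a single place, so reads from exons shared between gene models, or from near-identical variable exons, may be missing from the values. How the annotation behind the deposited counts draws these models was not examined. The value of each clustered gene is therefore uncertain as a level, and levels are not compared between genes, since no transcript lengths were used.

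The alpha-type genes, first of the *pcdh1* cluster in table order, were higher in GR-mutant brains where they were called. *pcdh1a6* had 51.3, 34.9, 81.6, 10.2, 56.7 and 72.2 normalised counts in wild-type libraries 1, 2, 3, 4, 5 and 7. GR-mutant libraries 1 to 6 had 127, 96.2, 140, 118, 140 and 143. The groups did not overlap, although the lowest wild-type value, in library 4, stood well below the others. The gene rose from 51.2 ± 25.9 to 127 ± 18.1 normalised counts (SD, n = 6, log2 difference 1.53, SE 0.39, limma adjusted p = 0.0169). It kept this call without any one of the 12 libraries.

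*pcdh1a4* rose by a smaller amount, from 147 ± 18.8 to 189 ± 20.4 normalised counts (SD, n = 6, log2 difference 0.36, SE 0.11, limma adjusted p = 0.0393). Its wild-type libraries lay between 123 and 166 and its mutant libraries between 166 and 214, so that the ranges met without overlapping. The call was lost without any one of 7 libraries (wild-type 1, 4 and 5, GR-mutant 1, 3, 5 and 6), with adjusted p from 0.0351 to 0.0901 over the 12 fits that leave out 1 library. The third alpha-type gene, *pcdh1a3*, had 25.0 ± 15.8 and 46.4 ± 17.6 normalised counts (SD, n = 6) and was not called (limma adjusted p = 0.174). Its wild-type values ran from 1.13 in library 4, which is 1 read, to 45.4 in library 7, and overlapped the mutant values of 25.1 to 71.8. This gene passed the filter only with its mutant libraries.

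*pcdh1g1*, the first gamma-type gene in table order, had the largest fold change of the 52 tested members. It had 6.26, 36.8, 7.53, 78.1, 4.89 and 7.30 normalised counts in wild-type libraries 1, 2, 3, 4, 5 and 7. The values of GR-mutant libraries 1 to 6 were 109, 102, 120, 127, 84.3 and 92.3. The 6 mutant brains lay above all wild types, which split into 4 brains below 10 normalised counts and libraries 2 and 4 in between. Those 4 brains had 5 to 9 reads each, so the size of the fold change rests on low counts. The gene would not have passed the filter without its mutant libraries. The log2 fold change was 2.87 (SE 0.56, limma adjusted p = 0.00384). It ranged from 2.61 to 3.36 without any one library, with adjusted p of at most 0.0104. Over the 9 other settings in which the gene was tested, the log2 fold change ran from 2.17 to 2.95. The mutant mean was 4.51 times the wild-type mean, a smaller change than a log2 fold change of 2.87 stands for. The difference stands beside a spread among wild-type brains in which library 4 had 16 times the value of library 5.

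The gamma-type genes *pcdh1g22* and *pcdh1g29* were higher in every mutant brain than in any wild-type brain, by uneven amounts. *pcdh1g22* had 178, 287, 227, 261, 196 and 258 normalised counts in wild-type libraries 1, 2, 3, 4, 5 and 7. In GR-mutant libraries 1 to 6 it had 593, 486, 585, 453, 503 and 324. The lowest mutant brain was above the highest wild-type brain (log2 fold change 1.05, SE 0.15, limma adjusted p = 5.55e-04). *pcdh1g29* had 339, 336, 488, 325, 397 and 481 normalised counts in wild-type libraries 1, 2, 3, 4, 5 and 7. GR-mutant libraries 1 to 6 had 1158, 679, 800, 716, 873 and 648. Here too the groups did not overlap, and mutant library 1 was the highest (log2 fold change 1.03, SE 0.15, limma adjusted p = 4.92e-04). Both genes kept their call in each of the 10 other settings and without any one library.

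*pcdh1gc6*, a gamma-type gene of the C group, rose from 379 ± 61.5 to 536 ± 92.7 normalised counts (SD, n = 6, log2 difference 0.50, SE 0.13, limma adjusted p = 0.0216). The groups overlapped: wild-type brains lay between 277 and 447, and mutant library 2, at 404, was below 2 of them. Without GR-mutant library 5 the call was lost (adjusted p = 0.0518). Its neighbour *pcdh1gc5* had 734 ± 152 and 860 ± 120 (SD, n = 6) and was not called (limma adjusted p = 0.243).

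*pcdh1g14* rose from 47.0 ± 24.7 to 99.2 ± 39.2 normalised counts in GR-mutant brains (SD, n = 6, log2 difference 1.13, SE 0.33, limma adjusted p = 0.0333). The groups overlapped, as wild-type library 4 had 88.2 and mutant library 4 had 61.9. This call was lost without any one of 6 libraries (wild-type 1, 5 and 7, GR-mutant 1, 3 and 5), with adjusted p from 0.0145 to 0.0760.

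**Figure D2:**
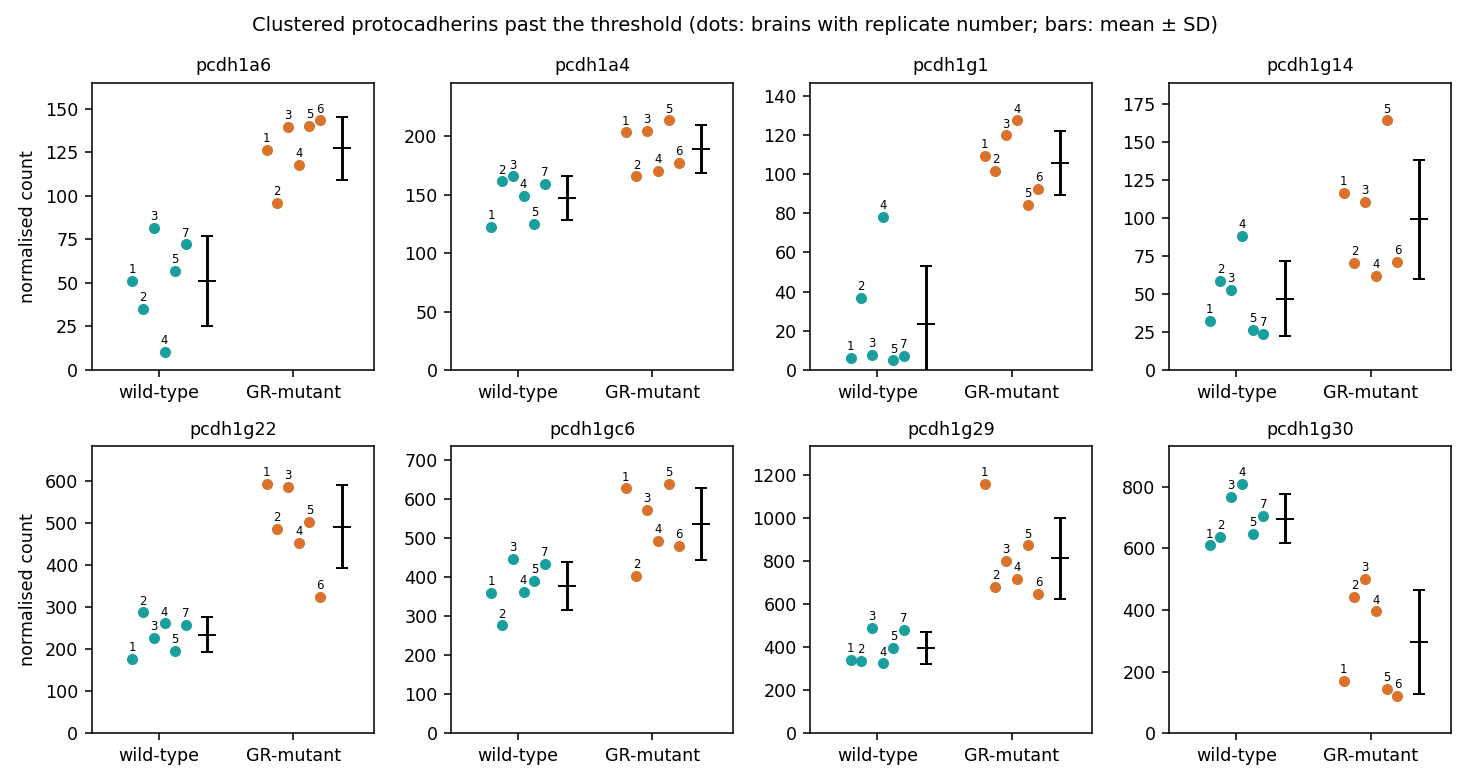
Normalised counts (y axis, from 0) of the 8 called clustered protocadherins in each brain, with its replicate number, and the mean with its SD by genotype; the lower SD bar of *pcdh1g1* in wild-type brains ends at the axis. In *pcdh1g1* the wild-type libraries 2 and 4 sit apart at 36.8 and 78.1, and in *pcdh1g30* the mutant libraries 1, 5 and 6 sit at 121 to 170 below the other mutants.

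*pcdh1g30* was the 1 clustered gene called lower, among 8 of 31 tested clustered genes with a negative fold change. It had 609, 636, 767, 809, 647 and 706 normalised counts in wild-type libraries 1, 2, 3, 4, 5 and 7. The values of GR-mutant libraries 1 to 6 were 170, 442, 500, 395, 143 and 121. Every mutant brain was below every wild-type brain, but the mutants themselves split into 3 low libraries (1, 5 and 6) and 3 intermediate ones (2, 3 and 4). The log2 fold change was -1.45 (SE 0.33, limma adjusted p = 0.00883), and the call held in all 22 alternative fits. *pcdh1g30* lies next to *pcdh1g29* in the table order, and the neighbours moved in opposite directions.

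*pcdh1gb9*, a B-type gamma gene and one of the uncalled members closest to the threshold, showed the same split of the mutants. It had 16.3, 19.7 and 25.9 normalised counts in mutant libraries 1, 5 and 6, and 78.8, 95.8 and 77.3 in mutant libraries 2, 3 and 4. Wild-type libraries lay between 68.5 and 112, so that 3 mutant brains were inside the wild-type range and 3 far below it. The difference between the genotypes did not pass (85.8 ± 19.5 and 52.3 ± 35.4 normalised counts, SD, n = 6, log2 difference -1.0, limma adjusted p = 0.115).

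The following *pcdh1* genes were chosen after their values were seen, for their range between brains of the same genotype. *pcdh1g26* had 444, 200, 601, 22.6, 488 and 498 normalised counts in wild-type libraries 1, 2, 3, 4, 5 and 7. In GR-mutant libraries 1 to 6 it had 696, 631, 371, 263, 624 and 541. Wild-type library 4 was far below all other brains and wild-type library 2 was next lowest, the brains in which *pcdh1g1* was highest among the wild types. The genotypes were not called different (log2 fold change 0.93, SE 0.66, limma adjusted p = 0.353).

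*pcdh1gb2* had 15.8 normalised counts in wild-type library 4 and 46.3 in library 2, against 61.6 to 109 in the other wild-type brains and 29.1 to 83.1 in the mutants. *pcdh1g33* had 84.8 in wild-type library 4 and 233 in library 2, against 300.2 to 407 in the other wild-type brains. In *pcdh1a6*, *pcdh1gb2*, *pcdh1g33* and *pcdh1g26*, libraries 4 and 2 were thus the lowest and next lowest wild-type brains. *pcdh1g9*, which the rule on high counts names, had 1075 and 829 in mutant libraries 3 and 4, against 353 to 594 in the other mutants and 381 to 656 in the wild types (adjusted p = 0.591 between genotypes, limma). In *pcdh1g26* the order was turned, with mutant libraries 3 and 4 the lowest of their genotype.

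Wild-type library 4 was not low throughout the cluster. Of the 21 *pcdh1* genes it was the lowest wild-type brain in 8 and the highest in 6. Wild-type library 3 was the highest in 10 and the lowest in none, and GR-mutant library 6 was the lowest mutant brain in 9. What sets these brains apart was not tested.

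**Figure D3:**
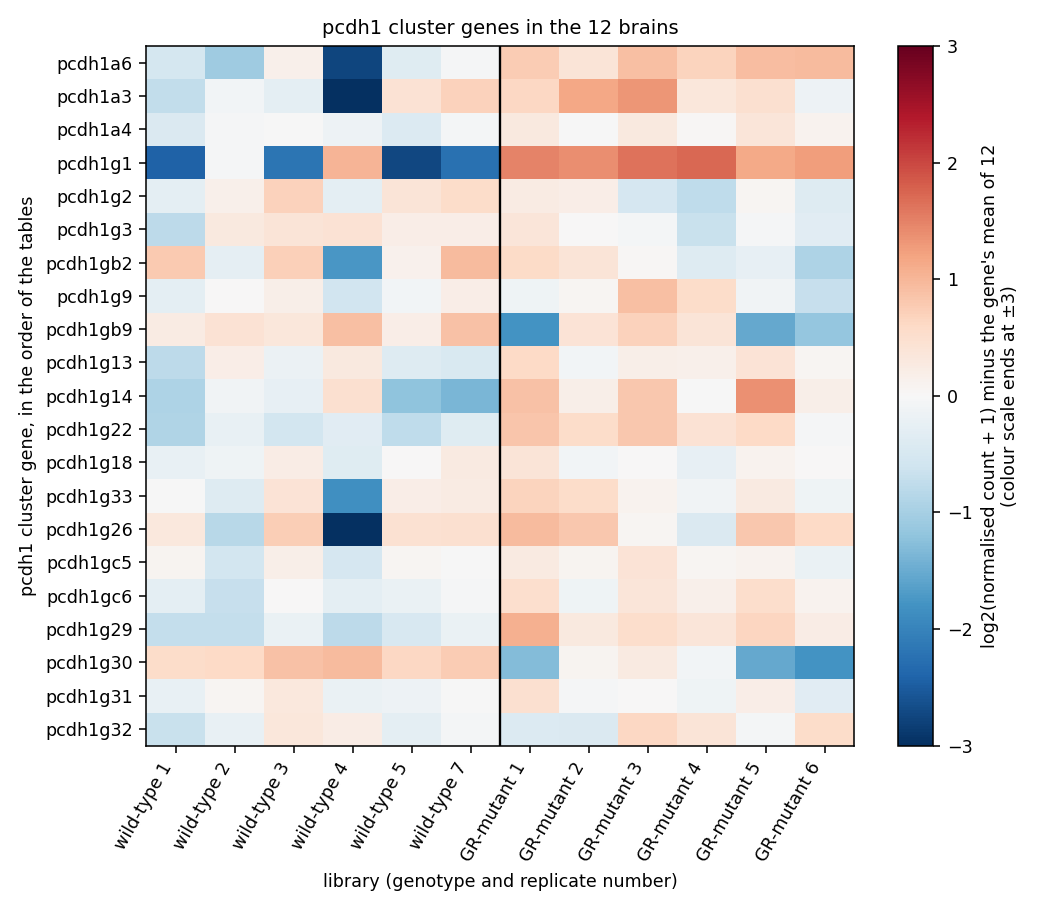
The 21 *pcdh1* genes (rows, in table order) in the 12 libraries (columns); colour is log2(normalised count + 1) minus the mean of the 12 libraries for that gene, with the scale ending at 3 either way. The dark blue cells of wild-type library 4 (*pcdh1a3*, *pcdh1a6*, *pcdh1g26*) and the blue cells of mutant libraries 1, 5 and 6 (*pcdh1gb9*, *pcdh1g30*) show single genes that are low in some brains of a genotype.

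Summed over its 21 genes, the *pcdh1* cluster came to 5040 ± 755 normalised counts per wild-type library and 6167 ± 860 per GR-mutant library (SD, n = 6), with ranges of 4151 to 6132 and 4808 to 7123 that overlapped. The 3 alpha-type genes summed to 161 to 277 in wild-type and 324 to 416 in GR-mutant libraries, ranges that did not overlap. Since 2 of these 3 genes were called higher in the same libraries, their sum is not a separate result. The 18 gamma-type genes summed to 3990 to 5862 and 4462 to 6750, ranges that overlapped. The *pcdh2* cluster summed to 18901 ± 1314 and 19438 ± 1005, and the 21 non-clustered genes to 36641 ± 2115 and 38312 ± 2255 (SD, n = 6). These sums are descriptions, with no test.

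In the *pcdh2* cluster nearly all counts came from the gamma-type gene *pcdh2g28*. Its counts were 18208 ± 1362 and 18653 ± 923 normalised counts (SD, n = 6, log2 difference 0.04, SE 0.05, limma adjusted p = 0.679). Its libraries lay between 16510 and 20209 in wild-type and between 17676 and 19820 in mutant brains. It is the only *pcdh2g* symbol among the members, and whether its gene model holds the shared constant exons was not tested.

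None of the tested alpha-type *pcdh2* genes was called. *pcdh2ab9* had 228 ± 56.9 and 278 ± 38.4 normalised counts, and *pcdh2ab12* had 99.1 ± 17.8 and 124 ± 19.8 (SD, n = 6, limma adjusted p = 0.216 and 0.145). *pcdh2aa15*, named after its values were seen, had 15.4 and 12.1 in mutant libraries 1 and 6, against 53.5 to 107 in the other mutants, and 20.5 in wild-type library 5, against 52.0 to 68.0 in the other wild types. Its genotypes were not called different (limma adjusted p = 0.916). GR-mutant library 6 was the lowest mutant brain in 8 of the 9 tested *pcdh2* genes, and also in 12 of the 20 tested non-clustered genes.

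Of the 5 *pcdh2* genes that did not pass the filter, *pcdh2ab3*, *pcdh2ac* and *pcdh2ab11* had no read in any of the 12 libraries. *pcdh2aa1* had 0 to 4 reads and *pcdh2ab2* 0 to 14 reads per library. Since shared exons may take reads out of the counting, these values do not show that the genes are silent. *pcdha8l* had 43.5 ± 9.71 and 44.6 ± 8.32 normalised counts (SD, n = 6) and was not called (limma adjusted p = 0.891). *pcdhb* had 294 ± 46.5 and 375 ± 75.5 (SD, n = 6, limma adjusted p = 0.118), and was called higher without GR-mutant library 6. *pcdha8l* and *pcdhb* closely follow the *pcdh2* genes in table order and were placed on the same chromosome. Neither is counted in the *pcdh2* cluster here.

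The range from brain to brain within a genotype was wider in the median clustered gene than in the median non-clustered gene. The highest wild-type library had a median of 1.98 times the lowest in the *pcdh1* cluster, 2.17 times in the *pcdh2* cluster and 1.33 times among the non-clustered genes. In mutant brains the medians were 1.83, 2.05 and 1.27. Of tested genes with a mean of 20 to 1000 normalised counts, the highest library was at least 3 times the lowest within a genotype in 10 of 21 *pcdh1* genes, 4 of 7 *pcdh2* genes and none of 9 non-clustered genes, against 17.3% of 13183 genes over the whole series. The classes were not matched for counts within this window. Most non-clustered genes in it had means of 294 to 974, while the *pcdh1* means ran from 35.7 to 797 and the *pcdh2* means from 47.6 to 253. Low counts add to such ranges. The median coefficient of variation in wild-type brains was 25.2% in the *pcdh1* cluster, where counting alone would give a median of 8.37%. It was 26.6% in the *pcdh2* cluster, where counting would give 12.7%, and 11.3% among the non-clustered genes, where counting would give 2.98%. These are descriptions with no test.

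**Figure D4:**
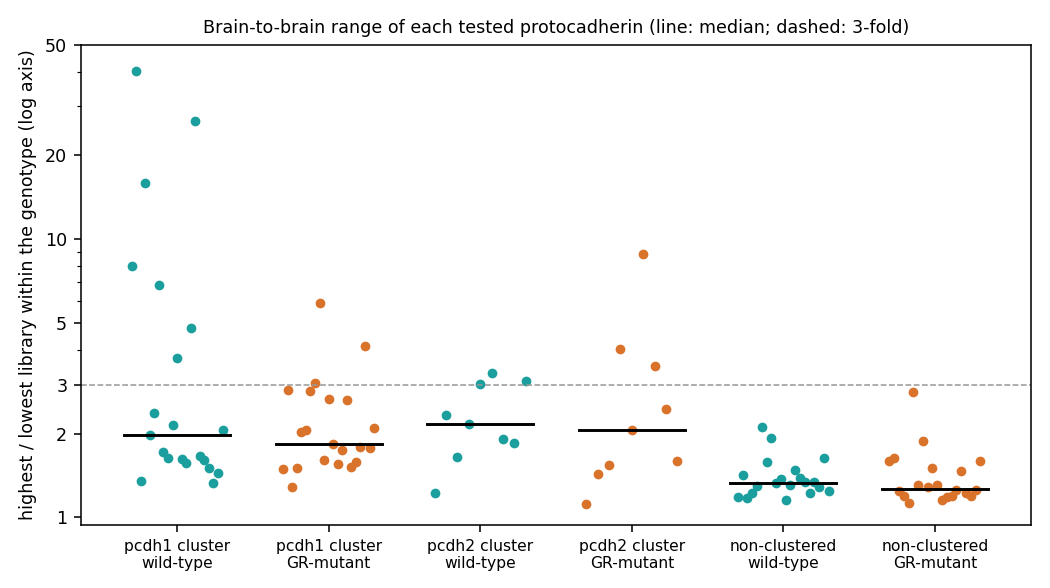
Ratio of the highest to the lowest library within a genotype (y axis, log scale) for each tested gene of the *pcdh1* cluster, the *pcdh2* cluster and the non-clustered set; lines are medians and the dashed line marks 3-fold. The non-clustered genes lie between 1.13 and 2.83, while *pcdh1* genes reach 40.2 in wild-type brains (*pcdh1a3*, whose lowest library had 1 read) and 5.89 in mutant brains.

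Among the non-clustered genes, *PCDH12*, which is known in mammals as an endothelial and placental protocadherin, was higher in GR-mutant brains. It had 11.3, 17, 8.78, 15.8, 14.7 and 13.8 normalised counts in wild-type libraries 1, 2, 3, 4, 5 and 7. GR-mutant libraries 1 to 6 had 41.6, 31.1, 58.6, 35.7, 43.8 and 31.6. The groups did not overlap at these low counts (log2 fold change 1.5, SE 0.23, limma adjusted p = 6.65e-04), and the call held without any one library. With wild-type library 3 below 10 normalised counts, the gene would not have passed the filter without its mutant libraries. It lies 103 rows from *nr3c1* in the tables.

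Some endothelial markers were called, with 2 IDs higher, 1 lower and 3 not called, beside 17.5% called over all tested genes. Of 6 tested IDs of the fixed endothelial list, CLDN5 (ENSDARG00000043716), a tight junction claudin, rose from 251 ± 30.7 to 415 ± 57.1 normalised counts, and SLC2A1 (ENSDARG00000001437), the glucose transporter of the barrier, from 713 ± 106 to 1234 ± 309 (SD, n = 6, limma adjusted p = 7.57e-04 and 0.00552). The receptor *kdrl* fell from 1154 ± 58.7 to 927 ± 111 (SD, n = 6, limma adjusted p = 0.0140). The defining cadherin *cdh5* had 619 ± 41.4 and 692 ± 90.2 (SD, n = 6, limma adjusted p = 0.223). The other IDs of SLC2A1 and CLDN5 were not called (log2 differences 0.06 and 0.50, limma adjusted p = 0.886 and 0.453). The list summed to 2859 to 3174 in wild-type and 2803 to 4215 in mutant libraries, with none of the 6 at 0, and its part in the rise of *PCDH12* was not tested.

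*pcdh11* fell in GR-mutant brains, while its table neighbour *PCDH11X* was not called. The human gene PCDH11X encodes a delta protocadherin with a Y-linked copy in humans. *pcdh11* had 1880, 1551, 1536, 1602, 1915 and 1443 normalised counts in wild-type libraries 1, 2, 3, 4, 5 and 7. The values of GR-mutant libraries 1 to 6 were 1324, 1198, 1276, 1506, 1175 and 1384. Mutant library 4 alone overlapped the wild types (log2 fold change -0.33, SE 0.08, limma adjusted p = 0.0142). *PCDH11X* had 939 ± 102 and 1010 ± 132 (SD, n = 6, limma adjusted p = 0.498). They are the protocadherins nearest to *nr3c1*, at 72 and 73 rows, and as neighbours with related symbols they may share reads.

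*PCDH18* (ENSDARG00000089805), a delta protocadherin, was higher in GR-mutant brains. It had 1349, 1210, 1145, 1125, 1120 and 1105 normalised counts in wild-type libraries 1, 2, 3, 4, 5 and 7, and 1529, 1517, 1361, 1472, 1280 and 1367 in GR-mutant libraries 1 to 6. Only wild-type library 1 reached into the mutant range (log2 fold change 0.27, SE 0.06, limma adjusted p = 0.00962). The other ID of this symbol, *PCDH18* (ENSDARG00000052494), had 1170 ± 173 and 1295 ± 75.5 (SD, n = 6, log2 difference 0.16) and was not called (limma adjusted p = 0.228). These paralogs may share reads, and the difference between them was not tested.

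**Figure D5:**
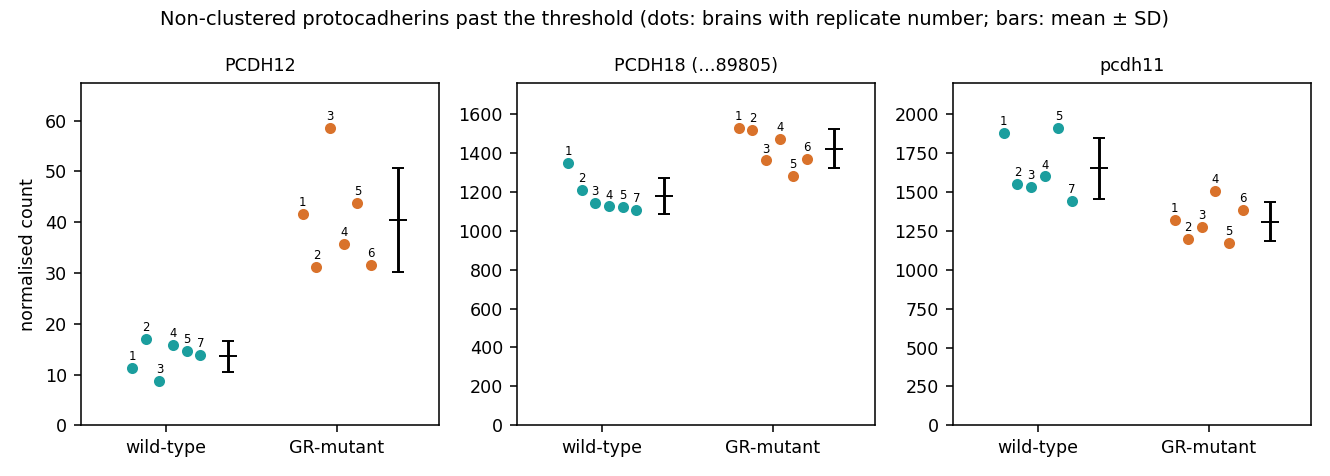
Normalised counts (y axis, from 0) of the 3 called non-clustered protocadherins in each brain, with its replicate number, and the mean with its SD by genotype; the ID of *PCDH18* is shortened to its last digits. The 6 mutant brains lie above all wild types for *PCDH12* (31.1 to 58.6 against 8.78 to 17), and mutant library 4 overlaps the wild types for *pcdh11*.

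The non-clustered genes with the highest counts differed little. *PCDH19*, linked to a form of epilepsy in humans, had 7028 ± 704 and 7219 ± 417 normalised counts (SD, n = 6, log2 difference 0.04, SE 0.06, limma adjusted p = 0.689). *PCDH17*, a delta protocadherin of synapses and axons, had 4770 ± 402 and 4679 ± 291 (SD, n = 6, limma adjusted p = 0.806). The IDs of *PCDH10*, which in mice guides axons of the basal ganglia, had 5821 ± 353 and 6032 ± 447 (ENSDARG00000099729), and 3417 ± 436 and 3774 ± 286 (ENSDARG00000102824; SD, n = 6, limma adjusted p = 0.587 and 0.20). The latter was called higher without wild-type library 1 and the former was not.

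*pcdh9*, a delta protocadherin, was the uncalled member closest to the threshold, at 608 ± 94.5 and 771 ± 124 normalised counts (SD, n = 6, log2 difference 0.34, SE 0.12, limma adjusted p = 0.0728). DESeq2 called it higher, as did limma with total-count scaling, without wild-type library 2 and without GR-mutant library 6. *PCDH1* (ENSDARG00000036175), on the chromosome of *nr3c1*, had 1782 ± 119 and 1770 ± 188 (SD, n = 6, log2 difference -0.01, limma adjusted p = 0.918), and the sign of this value turned with upper-quartile and with total-count scaling. Over the 17 uncalled non-clustered genes the log2 fold changes ran from -0.23 (*pcdh15b*) to 0.34 (*pcdh9*).

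Of the genes on 4 lists of other cadherins and of protocadherin partners and regulators, 14 of 91 tested IDs were called, beside a background of 17.5%. Of 22 tested IDs for regulators of cluster promoters, chiefly CTCF, cohesin and methylating enzymes, 5 were higher, 1 was lower and 16 did not pass. CTCF itself was not called (log2 difference 0.04, limma adjusted p = 0.665), nor were SMC3, either SMC1A ID or DNMT1. *rad21a*, a cohesin subunit, rose from 3204 ± 237 to 3934 ± 282 normalised counts. STAG1 (ENSDARG00000062137), also of cohesin, rose from 1069 ± 45.5 to 1303 ± 84.0, and WAPL (ENSDARG00000044144), which releases cohesin, from 578 ± 76.2 to 736 ± 61.9 (SD, n = 6, limma adjusted p = 0.00508, 0.00286 and 0.0211). STAG2 (ENSDARG00000053668) fell from 5657 ± 541 to 4987 ± 107 (SD, n = 6, limma adjusted p = 0.0483), a value named after it was seen. The other IDs of STAG1, STAG2 and WAPL were not called (log2 differences 0.06, 0.09 and 0.11, limma adjusted p = 0.533, 0.164 and 0.160). Nor was the ID named RAD21 (log2 difference -0.09, limma adjusted p = 0.372). The remaining higher IDs, named after they were seen, were NIPBL (ENSDARG00000098272) and EHMT2 (log2 differences 0.17 and 0.23, limma adjusted p = 0.0318 and 0.0359). The other NIPBL ID was not called (limma adjusted p = 0.786). The listed symbols dnmt3aa, dnmt3ab, dnmt3bb.1, smc1al and wiz matched no ID and were not examined.

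Of 31 tested partners and processing enzymes, 3 were higher and 2 lower. The focal adhesion kinase gene *ptk2ab*, whose mammalian product binds gamma protocadherins, fell from 1820 ± 76.4 to 1551 ± 49.1 normalised counts. The ID named PTK2 rose from 430 ± 57.4 to 544 ± 36.5, and the catenin *ctnna1* from 294 ± 41.4 to 479 ± 110 (SD, n = 6, limma adjusted p = 0.00251, 0.0151 and 0.00666).

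Of 18 tested IDs on a list of mostly classical cadherins, *cdh10a* was higher in limma (455 ± 98.3 and 606 ± 94.8 normalised counts, SD, n = 6, limma adjusted p = 0.0459). By edgeR none of the 18 was called higher. None was called lower by limma, edgeR or DESeq2, with 2, 2 and 3 lower at an unadjusted p under 0.05. Of 20 large cadherins, CDHR1 (ENSDARG00000104756), a photoreceptor cadherin, and the Flamingo-type CELSR2 were higher, at 324 ± 44.1 and 482 ± 89.8, and 1198 ± 97.1 and 1408 ± 124 (SD, n = 6, limma adjusted p = 0.00883 and 0.0348). None of the large cadherins was lower by any of the 3 tools, also at an unadjusted p. The other CDHR1 ID (ENSDARG00000004643) was not called (limma adjusted p = 0.873). Over the 91 tested IDs of the lists, 11 were higher and 3 lower, or 19 higher and 1 lower with every library scaled to the same total. Without any one of wild-type libraries 3, 4 and 7 or GR-mutant libraries 1, 3, 5 and 6, 7 or 8 of the 91 were called.

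The cell-type lists varied between brains, and their calls stand beside 17.5% called over all tested genes, 7.59% higher and 9.92% lower. No neuronal marker of 7 was called by limma or edgeR, and DESeq2 called 1 lower (1, 1 and 2 lower at an unadjusted p). Their sum was 230989 to 244602 in wild-type and 222410 to 235127 in mutant libraries. Oligodendrocyte markers (0 of 5 called, also at an unadjusted p by any of the 3 tools) summed to 211976 to 280277 and 154867 to 348232. Of 8 radial glia IDs 1 was higher and 2 lower (sums 126332 to 143635 and 107350 to 127490), the latter both GLUL. The GLUL means fell from 41682 to 31181 and from 13219 to 5289 normalised counts, and these falls weigh on the sum. Of 5 microglial IDs none was called by limma or edgeR and 1 lower by DESeq2, with 1, 1 and 2 lower at an unadjusted p (17637 to 29396 and 14247 to 31386). Of 5 pituitary IDs limma called POMC higher (88.4 to 386 and 180 to 7166 normalised counts, overlapping), and DESeq2 called 2 higher. The pituitary list summed to 3155 to 19846 and 268 to 54371. Neither the 2 blood IDs (1013 to 3825 and 1424 to 5747) nor the 5 olfactory or photoreceptor IDs (246 to 6678 and 157 to 6025) were called by any tool or passed an unadjusted p. The part of cell composition in the protocadherin values was not tested.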

How the data were processed

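RNA-Seq was analysed for 12 brains, 6 per genotype. The authors used Trimmomatic (version 3.9 in the submitters' processing notes) for trimming and SortmeRNA against rRNA. STAR then mapped the pairs to GRCz11 and tallied reads by gene (GeneCounts). The deposited signal is this count over a DESeq2 size factor. All values (100%) were whole multiples of 1 read within a tolerance of 0.001, and the recovered reads served only for edgeR (4.0.16, 3458 genes called) and DESeq2 (1.42.0, 4406 called). The main test was limma (3.58.1, under R 4.3.3), with genotype as the only term and a trend of variance on mean. It was tested on simulated data.

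Symbols came from a name table (29201 IDs matched), in which 10 members share 5 symbols and are printed with their ID. Listed symbols missing from that table were matched to the capital symbol without paralog letters. Any 2 libraries differed in reads at 24900 genes or more, so none was counted as a repeat. Named genes were all called members, the 4 highest of each class, the 2 uncalled members closest to the threshold, the 4 nearest to *nr3c1*, and up to 3 called genes per list; others are marked. The members, lists and rule were chosen with earlier results of these data known. Alternatives were pseudocounts of 0.5 and 5, no filter or a mean of at least 100, 2 other scalings, no trend, a replicate block, both count tests, and leaving out each library. Strand settings of the counting are not given in the sources used here. Sequences were not used here.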

Additional observations from a re-analysis of the deposited data

Results flagged for a closer look

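In 10 of the 110 groups of 6 libraries examined (55 members with a read), 1 brain stood apart from the other 5 by a gap above Dixon's critical value for 6; chance flags about 1 in 20 groups. Among tested members, *pcdh1g3* had 42.5 normalised counts in wild-type library 1, against 86.0 to 101 in the other wild types. *PCDH10* (ENSDARG00000102824) had 4264 there, against 3074 to 3397, and *PCDH20* had 378, against 232 to 285. *pcdh2aa15* had 20.5 in wild-type library 5, against 52.0 to 68.0, and *PCDH10* (ENSDARG00000099729) had 5172 in GR-mutant library 6, against 5974 to 6424.

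The others did not pass the filter. *pcdh20l* had 115 normalised counts in GR-mutant library 2, against 0.81 to 5.95 in the other mutants, and 47.0 in wild-type library 5, against 0 to 11.3. *pcdh2aa1* had 5.0 in wild-type library 1 (others 0 to 1.62) and 3.29 in GR-mutant library 5 (others 0 to 1.19). *pcdh2ab2* had 0 in GR-mutant library 1, against 3.57 to 5.67.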

How the results depend on the processing

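Of the 11 called protocadherins, all kept their direction in the settings in which they were tested. Outside the fits that leave out a library, only *pcdh1a4* (no filter, replicate block) and *pcdh1g14* (replicate block) lost their call. A mean of at least 100 left 35 members tested and 7 called, and 16 clustered with 5 called. Total-count scaling called 6 non-clustered genes in place of 3. Without the trend, 8 of the other cadherin and partner genes were called in place of 14. Leaving out 1 library gave 8 to 12 called protocadherins, 5 to 8 clustered, 3 to 4 non-clustered and 7 to 12 others. No shared effect of the replicate numbers was seen, as deviations of same-numbered brains correlated between -0.15 and 0.08 and none matched its own number best. Whether the numbers mark pairs in handling cannot be told from these values. Replicate numbers 6 and 7 each occur in 1 genotype only, so with the replicate block the genotype difference rests on the libraries numbered 1 to 5. In that fit 11 protocadherins were called, 9 of them shared with the fit without the block. The 11 were 6 clustered genes, 4 non-clustered genes with *pcdh9* added, and *pcdhb*. The block called 10 of the other genes and 2340 of all genes in place of 3523. The uncalled *PCDH1* (ENSDARG00000036175) turned in sign with upper-quartile scaling (log2 fold change 0.0074), total-count scaling (0.069) and the replicate block (0.027), and *PCDH17* with total-count scaling (0.057). Leaving out 1 library gave -0.050 to 0.028 for *PCDH1* and -0.068 to 0.0058 for *PCDH17*. The causes were not tested.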
